A study of Bos taurus with 3 samples.

Results

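The genes IL17A, IL17F and IL22, which encode cytokines, and IL17RA, IL17RC, IL22RA1, IL10RB and IL23R, which encode chains of receptors, were followed in the newborn (NB) rumen. They were taken by symbol, and all 8 were found among the 27270 gene rows of the deposited matrices. The tissue came from the ventral sac of the rumen, the first forestomach of ruminants, of 3 calves, taken 1 day after birth. The study's text names Holstein as the breed of its adult cattle and gives no breed for the calves. The calves shared age and tissue, and no treatment or altered allele is stated for them. Each calf gave 1 library of droplet-captured single cells, so the 3 calves are replicates of 1 group. Adult tissue was not analysed here.

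The IL17 and IL22 axis is a line of defence of skin, gut and other barrier epithelia. Lymphocytes of the type 17 kind, among them T helper 17 cells, γδ T cells and innate lymphoid cells, release IL17A, IL17F and IL22 after stimulation by IL23 and IL1, and IL23R is the chain by which they sense IL23. IL17A and IL17F signal through a complex of IL17RA and IL17RC, and IL22 signals through IL22RA1 paired with IL10RB, after which epithelial cells produce chemokines, S100 proteins and other antimicrobial factors. IL10RB is also a chain of the receptors for IL10 and for the lambda interferons, and so is carried by many cell types.

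In the RefSeq annotation of another cattle assembly (ARS-UCD2.0), which held all 8 genes, IL17A and IL17F were direct neighbours between PKHD1 and MCM3. IL22 lay next to IL26, followed by IFNG. Receptor genes also stood beside relatives, IL17RC beside IL17RE, IL10RB between IFNAR1 and IFNAR2, and IL23R beside IL12RB2.

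The libraries of calves 1, 2 and 3 held 82263092, 89803289 and 106145091 unique molecular identifiers (UMIs, each a captured RNA molecule counted once), and 4545, 9642 and 9481 cells were kept, which is 23668 in all. Of these cells, 20730 were epithelial, 788 fibroblasts, 1334 endothelial and 816 immune. Only 10 immune cells came from calf 1 and 74 from calf 2, against 732 from calf 3, and the 306 lymphocytes were divided 3, 29 and 274. The summed markers of each class were highest in that class in every calf, but in the 22 fibroblasts of calf 1 the epithelial markers summed to 120 UMIs per 10000, against 18.3 and 9.61 in the fibroblasts of calves 2 and 3 and 175 to 220 in epithelial cells. Between 9 and 25 kept barcodes were shared by each pair of libraries, 104 cells in all, and 2 of these were lymphocytes, neither with a UMI of IL17A or IL17F.

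The cytokine RNA was held almost entirely by lymphocytes, cycling cells included. IL17F gave 513 UMIs in the kept cells, 0, 117 and 396 of them in calves 1, 2 and 3, and 504 of the 513 lay in lymphocytes. IL17A gave 152 UMIs, of which 149 lay in lymphocytes, and IL22 gave 24, of which 23 did. Lymphocytes here include a cluster of 18 cycling immune cells with CD3E in 11, a choice made after the clusters were seen, and without it the lymphocyte shares of IL17F, IL17A and IL22 UMIs were 77.4%, 70.4% and 20.8%. Outside the lymphocytes, 9 of 23362 cells had an IL17F UMI (0.0385%), 3 had an IL17A UMI (0.0128%) and 1 had an IL22 UMI (0.00428%). Each of those cells held a single UMI of the gene, although the median depth of all cells outside the lymphocytes was 7362 UMIs, against 2607 in lymphocytes. Whether these single UMIs come from background or from expression was not tested.

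Among lymphocytes, 39 of 306 had a UMI of IL17A or IL17F (12.7%, 95% Clopper-Pearson interval 9.22 to 17.0). The share was 0 of 3 cells in calf 1, which is too few cells to limit it. It was 8 of 29 cells (27.6%, interval 12.7 to 47.2) in calf 2 and 31 of 274 (11.3%, interval 7.82 to 15.7) in calf 3. The intervals of calves 2 and 3 overlapped, and with nearly all lymphocytes from 1 calf the difference between calves was not tested. These intervals cover counting error only.

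IL17F was found in more of these cells than IL17A. An IL17F UMI was found in 38 lymphocytes (12.4%), 8 in calf 2 and 30 in calf 3, and an IL17A UMI in 15 (4.90%), 1 in calf 2 and 14 in calf 3. The 2 genes were mostly found in the same cells, since 14 cells held both, which is 93.3% of the IL17A-positive and 36.8% of the IL17F-positive cells. Another 24 cells held IL17F alone and 1 held IL17A alone. How far the lengths and 3' ends of the transcripts affect the order of these genes was not tested.

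The amount of cytokine RNA per positive cell varied widely. Of the 39 IL17-positive lymphocytes, 34 held at least 2 UMIs of IL17A and IL17F together, and the others rest on a single UMI. In calf 2 the 8 IL17F-positive lymphocytes held 1 to 27 IL17F UMIs, with a median of 14, and in calf 3 the 30 positive cells held 1 to 112, with a median of 7.5. The single IL17A-positive lymphocyte of calf 2 held 3 IL17A UMIs, and the 14 of calf 3 held 1 to 35, with a median of 4. A few cells therefore carried much of the total: 1 cell held 22.2% and 5 cells held 50% of the IL17F UMIs in lymphocytes, and 1 cell held 23.5% and 5 cells held 78.5% of those of IL17A. The cell with the most IL17F held 112 IL17F and 19 IL17A UMIs together with 8 UMIs of the TRDC homolog. The cell with the most IL17A held 35 IL17A and 61 IL17F UMIs with 6 CD3E UMIs, and no UMI of the TRDC homolog. High IL17A did not always go with high IL17F, since other cells held 24 and 5, 21 and 23, or 18 and 5 UMIs of IL17A and IL17F.

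**Figure D1:**
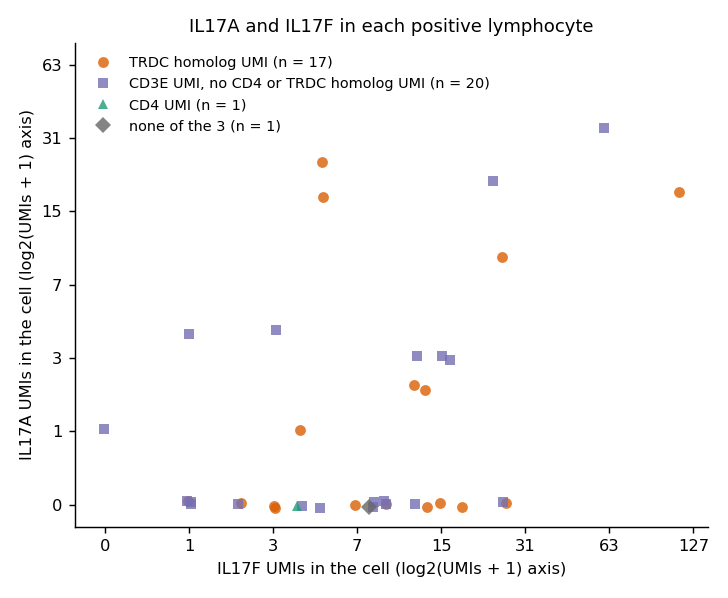
Each point is 1 of the 39 lymphocytes with a UMI of IL17A or IL17F, with IL17F UMIs on the x axis and IL17A UMIs on the y axis, both as log2(UMIs + 1), and with a small random shift so that points at the same count can be seen. Colours and shapes mark the gate genes found in the cell: 24 points lie at an IL17A count of 0, and cells with and without the TRDC homolog lie among each other over the whole range.

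A set of 3 genes was used to tell lymphocytes apart. CD3E is a chain of the T cell receptor complex and marks T cells, CD4 is the co-receptor of helper T cells, and ENSBTAG00000055197 is the gene called the TRDC homolog here. It has no symbol in the files and is taken, after the study, for the bovine constant region of the T cell receptor δ chain, which marks γδ T cells. Outside the lymphocytes, CD3E had a UMI in 0.613% of dendritic-like cells, and CD4 in 3.37% of them and 0.0193% of epithelial cells. Whether the CD4 UMIs of dendritic-like cells are background or expression was not tested. The TRDC homolog had a UMI in 0.0772% of epithelial and 2.15% of dendritic-like cells, but also in 12 of 98 macrophage- or monocyte-like cells (12.2%), so a single UMI of it is not proof of its expression.

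The IL17-positive lymphocytes were mostly cells with CD3E and without CD4. Of the 39, 34 had a CD3E UMI (87.2%, interval 72.6 to 95.7), 8 of 8 in calf 2 and 26 of 31 in calf 3. A CD4 UMI was found in just 1 of the 39 (2.56%, interval 0.0649 to 13.5). The TRDC homolog was found in 17 (43.6%, interval 27.8 to 60.4), 3 of 8 in calf 2 and 14 of 31 in calf 3. Another 20 (51.3%) had CD3E with neither CD4 nor the TRDC homolog, and 1 had none of the 3 genes. For comparison, the 267 lymphocytes without IL17A or IL17F had CD3E in 62.9%, CD4 in 8.61% and the TRDC homolog in 33.3%. The IL17-positive cells were the more deeply sequenced, with a median of 4082 UMIs against 2519, which raises the detection of every gene in them.

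Read the other way, IL17A or IL17F was found at close shares in lymphocytes with at least 1 UMI of the TRDC homolog and in those with CD3E alone. The first of these gates did not ask for CD3E, and 47 of its 106 cells had no CD3E UMI. Of the 106 lymphocytes with the TRDC homolog, 17 were IL17-positive (16.0%, interval 9.63 to 24.4), 3 of 11 in calf 2 (27.3%) and 14 of 94 in calf 3 (14.9%). Of the 120 with CD3E but neither of the other gate genes, 20 were IL17-positive (16.7%, interval 10.5 to 24.6), 5 of 14 in calf 2 and 15 of 104 in calf 3. The intervals of these gates overlapped over nearly their whole length. A stricter gate of at least 3 UMIs of the TRDC homolog held 59 lymphocytes, and 15 of these were IL17-positive. It took in 38.5% of the IL17-positive and 16.5% of the IL17-negative lymphocytes, which differ in depth. Cells with both CD3E and the TRDC homolog gave 13 of 59 (22.0%, interval 12.3 to 34.7), and cells with the TRDC homolog but without CD3E 4 of 47 (8.51%). The 24 cells with CD4, all from calf 3, gave 1 of 24 (4.17%, interval 0.105 to 21.1), and the 56 cells with none of the 3 genes gave 1 (1.79%). No lymphocyte with the TRDC homolog had a CD4 UMI. Since CD4 was found in few lymphocytes at this depth, a cell without a CD4 UMI is not shown to lack CD4. Likewise, a cell with CD3E alone is not shown to lack the TRDC homolog.

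The quantity of cytokine was likewise divided between cells with and without the TRDC homolog. Cells with it held 350 of the 653 IL17A and IL17F UMIs (53.6%). The 17 IL17F-positive cells with the TRDC homolog held 275 IL17F UMIs, 1 to 112 per cell with a median of 9, and the 21 without it held 229, 1 to 61 per cell with a median of 8. The range of the cells without it lay within that of the cells with it, whose top cell alone held 112 of the 275 UMIs.

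The lymphocytes formed 3 clusters, in which 0 to 22.2% of cells were IL17-positive. The larger lymphocyte-like cluster, of 252 cells, was led by KLRB1, CD96, CTSW, IFNG and CD8B, genes of cytotoxic and natural killer type lymphocytes. Within it, 16 of the 72 cells with the TRDC homolog were IL17-positive (22.2%, interval 13.3 to 33.6), against 19 of 180 without it (10.6%, interval 6.48 to 16.0). The smaller lymphocyte-like cluster, of 36 cells, was led by RHEX, BLK, the TRDC homolog and CD247. It had CD3E in all 36 cells and the TRDC homolog in 31, but IL17A or IL17F in 0 of 36, a count of 0 that allows at most 8.33% (3 counts of the cells). That limit lies within the interval of the cells without the TRDC homolog in the larger cluster and under that of the cells with it. A cluster of 18 cycling cells, led by MKI67 and TOP2A, with CD3E in 11, had 4 IL17-positive cells (22.2%) that held 42 IL17A and 107 IL17F UMIs. It was counted with the lymphocytes, and without it IL17A or IL17F was found in 35 of 288 cells (12.2%).

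**Figure D2:**
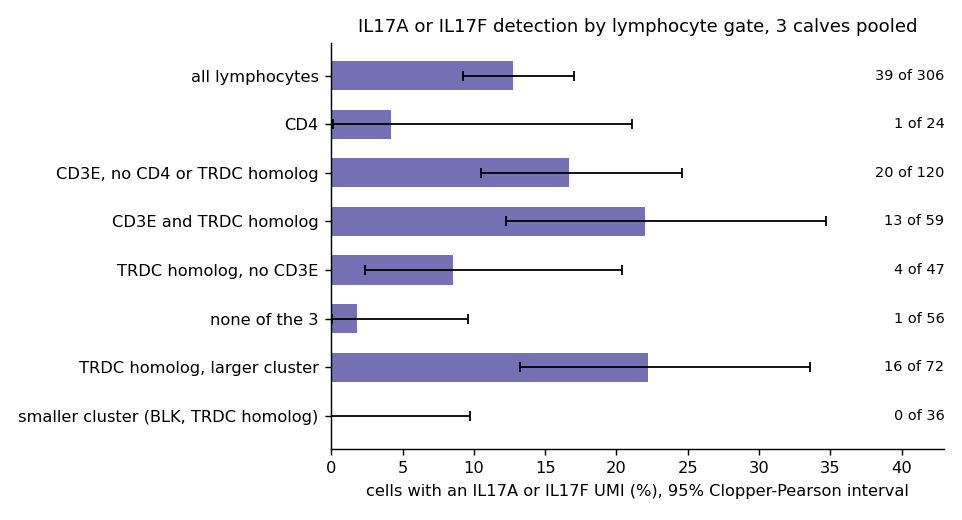
Bars give the percentage of cells with a UMI of IL17A or IL17F in each gate or cluster of lymphocytes, with the 3 calves pooled, and the lines give the 95% interval (Clopper-Pearson, for counting error alone). The interval of the CD4 gate, from 0.105 to 21.1, overlaps those of the other gates, and cells with none of the 3 genes (1.79%) and the smaller cluster (0 of 36) lie lowest.

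IL22 was rare. It was found in 3 lymphocytes (0.980%, interval 0.203 to 2.84), all of calf 3, and they held 18, 4 and 1 UMIs. The cell with 18 IL22 UMIs lay in the cycling cluster, with 5 CD3E UMIs and 1 CD4 UMI and no IL17A or IL17F. The cell with 4 held 4 IL17F, 3 CD3E and 1 CD4 UMIs, and the cell with 1 held 9 IL17F and 4 CD3E UMIs and no CD4. Of the 24 cells with CD4, 2 thus had IL22 (8.33%), whereas IL22 was found in 0 of the 106 with the TRDC homolog, where a count of 0 allows at most 2.83%. The remaining IL22 UMI was in a fibroblast of calf 1. With 3 cells from 1 calf, no pattern among the gates can be drawn from IL22.

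IL23R was also near the limit of detection. It gave 6 UMIs in 6 cells, 4 of them lymphocytes of calf 3. None of the 4 had a CD3E UMI, 3 had the TRDC homolog and 2 had IL17F. A single UMI in each cell sets no level, so these counts say only that the RNA was detectable. Its ligand chain IL23A, made by antigen-presenting cells, had a UMI in 20 of 326 dendritic-like cells (6.13%), and IL12B, the other chain of IL23, was found in 5 of the kept cells. IL1B, which acts with IL23 on these lymphocytes, had a UMI in 43.6% of dendritic-like and 48.0% of macrophage- or monocyte-like cells, and in 1 lymphocyte.

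To compare genes of the type 17 program at equal depth, every lymphocyte was thinned at random to 2000 UMIs, which left 37 IL17-positive and 196 IL17-negative cells and left out 73 shallower ones. IL1R1, the receptor of IL1, was found in 40.5% against 3.57% after thinning, and in 66.7% (26 of 39) against 5.62% (15 of 267) before. ZBTB16, a transcription factor of innate-like T cells, was found in 24.3% against 5.61%, and RORA, a nuclear receptor of type 17 and other lymphocytes, in 18.9% against 6.12%. ID2, a factor shared by innate lymphoid cells, was found in 86.5% against 66.8%. STAT3, which carries the IL23 signal and is a listed signalling gene outside the program, was found in 18.9% against 7.65%. JAK2 and TYK2, of the same signalling list, were lower, in 0 against 6.63% and 2.70% against 4.08%. The listed receptor IL12RB1 was close, in 2.70% against 2.55%. CXCR6, a chemokine receptor of tissue lymphocytes, was found in 35.1% against 20.4%. Of these genes IL1R1 had the widest gap, more than 35 percentage points.

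Other genes of the list were at equal or lower shares in the IL17-positive cells. IL7R, the receptor of a survival cytokine, was found in 62.2% of both groups, and GATA3, a factor of type 2 lymphocytes, in 21.6% and 21.4%. KLRB1, a lectin-like receptor, was found in 2.70% of IL17-positive against 15.3% of negative cells, and IFNG, the cytokine of type 1 responses, in 0 of 37 against 9.69%. TBX21, the factor that drives IFNG, was found in 0 of 37 against 3.06%. AHR, a sensor that favours IL22, was found in 0 of 37 against 8.67%, and CCR6, the receptor of CCL20, in 0 of 37 against 2.04%. For CCR6 the direction rests on the thinning, since before it the shares were 7.69% (3 of 39) and 1.87% (5 of 267). Of the 20 program genes, 11 had a higher and 8 a lower share in the IL17-positive cells at equal depth, and SOX13 was found in neither group. Before thinning 14 were higher and 6 lower, and the intervals of ZBTB16, IL2RA, ID2, BLK and CXCR6 did not overlap between the groups. These shares are over pooled cells that come mostly from calf 3, and no test was run on them.

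**Figure D3:**
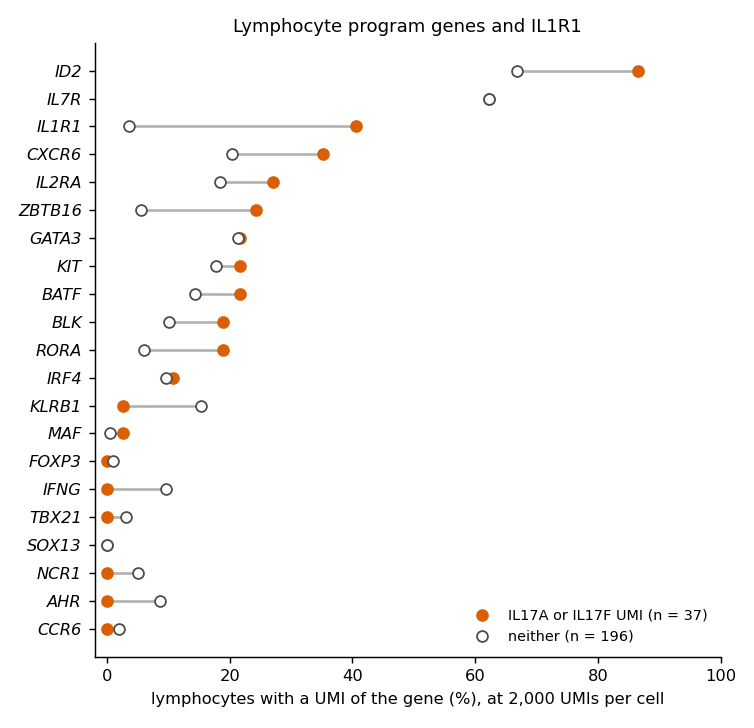
Points give, for each of the 20 program genes and IL1R1, the percentage of lymphocytes with a UMI after every cell was thinned to 2000 UMIs, in the 37 cells with and the 196 cells without a UMI of IL17A or IL17F, over the 3 calves pooled. IL1R1 (40.5% against 3.57%) is the most separated, IL7R is at 62.2% in both, and KLRB1, IFNG and AHR lie on the other side.

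The genes found in most nearly the same lymphocytes as IL17F, by the phi coefficient of detection over 306 cells and 5173 genes, were BGN (0.68), FGF9 (0.63) and IL1R1 (0.58). BGN, a small proteoglycan of connective tissue, was found in 21 of 38 IL17F-positive and 2 of 268 other lymphocytes, with 3 of 8 in calf 2 and 18 of 30 in calf 3. FGF9, a fibroblast growth factor, was found in 21 of 38 against 5 of 268, with 6 of 8 and 15 of 30 in the 2 calves. IL1R1 was found in 25 of 38 against 16 of 268, with 6 of 8 and 19 of 30. The genes were picked over these same cells, so their shares in the 2 calves are not an independent check. BGN was found in 32.2% of fibroblasts, but in 0 of the 510 immune cells that were not lymphocytes, and FGF9 in 0.772% of epithelial cells. For IL17A the closest genes were BGN (0.57), IL17F (0.56) and FURIN (0.43), a protease. For IL22, with 3 positive cells, TMX2, MLX (0.31) and MBD3 (0.31) led, and with so few cells this order has little meaning. These coefficients are a description over cells that share libraries and differ in depth.

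The receptor genes were spread far more widely than the cytokines. IL17RA, the chain shared by the IL17 receptors, had UMIs in 7167 cells (30.3%), IL10RB in 4170 (17.6%) and IL17RC in 3641 (15.4%). IL22RA1 had UMIs in 40 cells alone. Shares per calf were 38.3%, 27.4% and 29.4% of all cells for IL17RA, with the deepest library, calf 1 (a median of 10355 UMIs per cell, against 6475.5 and 7408), at the top. Levels below are therefore given as UMIs of the gene per 10000 UMIs of the summed class of a calf, and tests were run over the 3 calves and not over cells. Only IL17RA, IL17RC and IL10RB passed the filter on low counts; the other 5 genes were not tested.

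IL17RA was found in every class. In epithelial cells of calves 1, 2 and 3 it was at 0.456, 0.470 and 0.456 UMIs per 10000 (0.461 ± 0.00802, mean ± SD, n = 3 calves). It was at 0.725, 0.505 and 0.592 in fibroblasts (0.607 ± 0.111), at 0.379, 0.456 and 0.354 in endothelial cells (0.396 ± 0.0532) and at 0.598, 0.676 and 0.573 in immune cells (0.616 ± 0.0536). On this scale the epithelial level lay below that of fibroblasts and of immune cells in every calf, and above that of endothelial cells in every calf. The calf 1 values come from 22 fibroblasts and 10 immune cells, and so from few UMIs. Among immune cells, the pooled level was 0.928 in macrophage- or monocyte-like cells, 0.587 in lymphocytes and 0.489 in dendritic-like cells. After thinning to 2000 UMIs, an IL17RA UMI was found in 8.83% of epithelial, 10.3% of fibroblast, 7.52% of endothelial and 10.5% of immune cells.

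IL17RC, the chain that IL17A and IL17F need beside IL17RA, was lower in endothelial than in epithelial cells. Its level was 0.250, 0.192 and 0.209 in epithelial cells of calves 1, 2 and 3 (0.217 ± 0.0297) and 0.362, 0.142 and 0.191 in fibroblasts (0.232 ± 0.116). The highest of these fibroblast values, 0.362 in calf 1, comes from 22 cells and so from few UMIs. These cells carried epithelial RNA, while the epithelial level of that calf was lower, at 0.250. The part of that RNA in the value was not tested. The level was 0.151, 0.116 and 0.137 in endothelial cells (0.135 ± 0.0178), under the epithelial level of the same calf each time. It was 0.199, 0.0780 and 0.185 in immune cells (0.154 ± 0.0662), with 10 cells in calf 1. In lymphocytes, IL17RC had a UMI in 8 of 306 cells, a pooled level of 0.0796, and in dendritic-like cells the pooled level was 0.204.

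IL10RB, the chain that IL22RA1 shares with the IL10 and lambda interferon receptors, was highest in endothelial and immune cells. Its level was 0.833, 0.746 and 0.474 in endothelial cells of calves 1, 2 and 3 (0.684 ± 0.187) and 0.598, 0.546 and 0.529 in immune cells (0.558 ± 0.0361). It was 0.275, 0.230 and 0.198 in epithelial cells (0.234 ± 0.0389) and 0.242, 0.233 and 0.171 in fibroblasts (0.215 ± 0.0388). The endothelial and immune values did not overlap with those of the other classes, whereas epithelial cells and fibroblasts did not differ beyond their spread. For calf 1 these values rest on 10 immune cells and 22 fibroblasts, and so on few UMIs. The macrophage- or monocyte-like cells had the highest level, 1.14 in the 11 cells of calf 2 and 0.970 in the 84 of calf 3. The value of calf 1, 0.928, came from 3 cells. Lymphocytes and dendritic-like cells had pooled levels of 0.508 and 0.435.

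**Figure D4:**
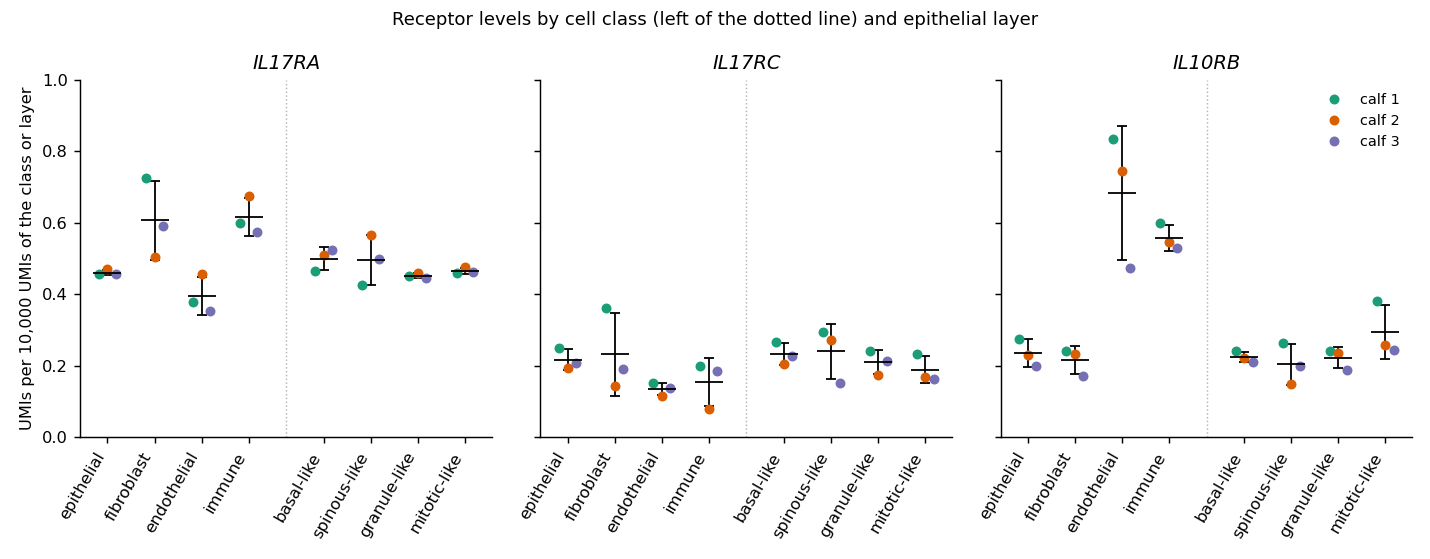
Points give the level of IL17RA, IL17RC and IL10RB in each calf as UMIs per 10000 UMIs of the class or epithelial layer, and the black lines give the mean and SD over 3 calves. IL10RB stands out in endothelial cells (0.684) and immune cells (0.558), the mean of IL17RC over calves is lowest in endothelial cells (0.135), although the immune cells of calf 2 lie lower (0.0780), and the layers to the right of the dotted line lie close together for all 3 genes.

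Levels were compared between classes with edgeR's quasi-likelihood test on counts summed per calf and class, with the calf as a block and Benjamini-Hochberg adjustment over 10234 genes. Epithelial cells differed from endothelial cells in all 3 genes tested, in a comparison that called 46.5% of all genes tested. On the log2 scale of the fit, epithelial minus endothelial, IL10RB was lower by -1.18 ± 0.21 (SE, n = 3 calves, adjusted p = 9.3e-05). IL17RC was higher by 1.01 ± 0.27 (adjusted p = 0.00411) and IL17RA by 0.55 ± 0.21 (adjusted p = 0.0353). The call of IL17RA was lost without the block (adjusted p = 0.0991), without calf 2 (0.173) or calf 3 (0.197), and on total UMIs without scaling factors (0.383). That of IL17RC was lost without calf 2 (adjusted p = 0.0715), and that of IL10RB was kept in all 13 alternatives, with adjusted p from 2.2e-07 to 0.0175.

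Against immune cells, IL10RB was lower in epithelial cells by -1.19 ± 0.24 (SE, adjusted p = 0.000409), which made 1 of 3 genes called where 47.2% of all genes were. Immune cells came mostly from calf 3, and without it the difference was -0.80 (adjusted p = 0.160). IL17RA differed by -0.23 (95% interval -0.71 to 0.25, adjusted p = 0.430) and IL17RC by 0.53 (-0.13 to 1.19, adjusted p = 0.182). Against fibroblasts, 0 of 3 genes passed, where 37.3% of all genes did. By edgeR the differences were 0.59 for IL10RB (95% interval -0.02 to 1.19, adjusted p = 0.121), 0.66 for IL17RC (-0.01 to 1.34, adjusted p = 0.118) and 0.18 for IL17RA (-0.31 to 0.66, adjusted p = 0.595). These intervals leave room for differences in either direction or of more than 1 on the log2 scale.

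The direction of such values depends on how the classes are scaled. The fit's scaling factors set the typical gene near 0, with a median difference of 0.10 against fibroblasts, -0.04 against endothelial and -0.02 against immune cells, while on total UMIs without these factors the medians were -0.39, -0.37 and -0.17. Without the factors IL17RA was lower in epithelial cells than in fibroblasts, by -0.31, as its levels per 10000 UMIs also show. IL10RB against endothelial cells was then -1.51, and IL17RC 0.67 (edgeR, adjusted p = 0.0336). Genes higher in epithelial cells made 51.6%, 46.0% and 47.3% of the calls against fibroblasts, endothelial and immune cells with the factors, and 24.8%, 29.3% and 39.6% without them. With the size factors of DESeq2, 41.9% and 53.2% of the calls against fibroblasts and immune cells were higher, and DESeq2's own test gave 38.6% against fibroblasts.

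Within the epithelium, 4 layers were named from fixed markers: 5538 basal-like cells, 672 spinous-like, 3396 granule-like and 1438 mitotic-like cells, with 9686 cells left unnamed. The basal-like clusters, the reference of every comparison between layers, and the granule-like cluster each rested on 3 raised markers, so these names are uncertain. The basal-like cluster of 3074 cells had the granule marker DLK2 among its leading genes, beside the basal marker COL17A1. That of 2464 cells was led by S100A7, with the spinous marker FABP5 and the basal marker KRT14 also among its leading genes. The granule-like cluster was led by immediate-early and inflammatory genes such as GRO1, CXCL3, IRF1, ATF3, EGR1 and FOSB. IL17RA, IL17RC and IL10RB were found in each of the 4 named layers at close levels. IL17RA was at 0.464, 0.509 and 0.525 UMIs per 10000 in basal-like cells of calves 1, 2 and 3 (0.499 ± 0.0314) and at 0.426, 0.565 and 0.499 in spinous-like cells (0.497 ± 0.0700). In granule-like and mitotic-like cells it averaged 0.452 ± 0.00811 and 0.466 ± 0.00799. All 4 layers thus lay within 0.05 of each other for this gene.

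IL17RC averaged 0.233 ± 0.0318 in basal-like, 0.240 ± 0.0762 in spinous-like, 0.209 ± 0.0334 in granule-like and 0.188 ± 0.0379 in mitotic-like cells (SD, n = 3 calves). In mitotic-like cells it was 0.232, 0.169 and 0.164 in calves 1, 2 and 3, under the basal-like 0.266, 0.203 and 0.228 of the same calf each time. IL10RB averaged 0.224 ± 0.0151, 0.204 ± 0.0568, 0.222 ± 0.0295 and 0.294 ± 0.0764 in the same order of layers. It was 0.382, 0.257 and 0.244 in mitotic-like cells, above the basal-like 0.241, 0.221 and 0.211 of the same calf each time.

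None of the differences between layers passed the threshold. Against basal-like cells, 0 of 3 genes were called in spinous-like, granule-like or mitotic-like cells, where 37.3%, 23.9% and 17.6% of 11171 genes were. The lowest adjusted p, 0.0920 by edgeR, was that of IL17RC in mitotic-like cells, with a difference of -0.45 (95% interval -0.82 to -0.08). IL17RA in spinous-like cells differed by 0.22 (-0.03 to 0.48, adjusted p = 0.146), IL17RC by 0.33 (-0.06 to 0.72, adjusted p = 0.176) and IL10RB by 0.05 (-0.31 to 0.40, adjusted p = 0.846). The remaining adjusted p were 0.170 to 0.820, and the intervals of all these differences stay within 1 on the log2 scale.

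**Figure D5:**
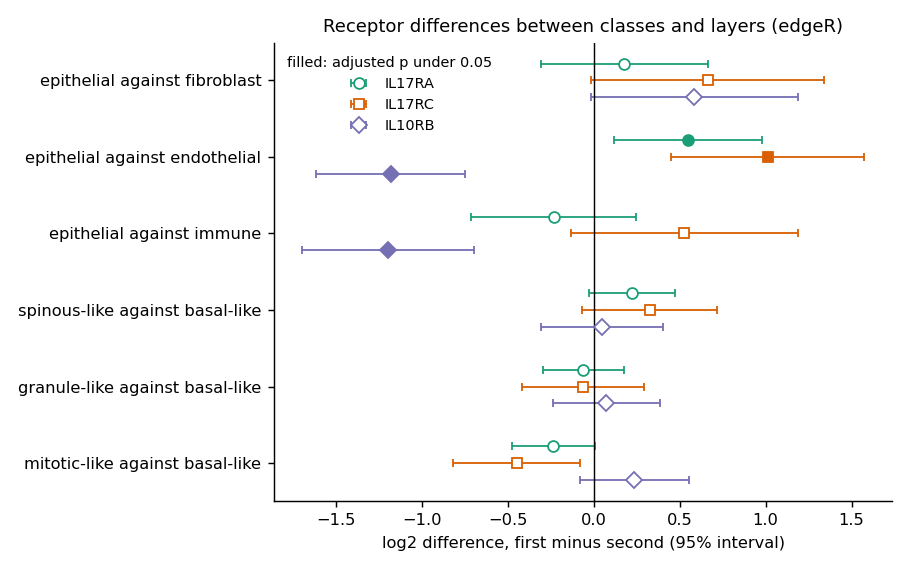
Points give the log2 difference of IL17RA, IL17RC and IL10RB in 6 comparisons of classes and layers, first minus second, with the 95% interval of edgeR's fit over 3 calves, and filled points passed an adjusted p of 0.05. The filled points are the 3 genes against endothelial cells, with IL10RB at -1.18 and IL17RC at 1.01, and IL10RB against immune cells at -1.19.

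IL22RA1 is the chain that pairs with IL10RB to bind IL22. The cells with a UMI of it were epithelial but for 1, in data where 20730 of 23668 cells were epithelial. Epithelial cells of calves 1, 2 and 3 held 24, 13 and 6 UMIs in 23, 10 and 6 cells, which is 0.519%, 0.115% and 0.0786% of them. Calf 1, with the most, had the deepest library, and the part of depth in this was not tested. No UMI was found in 1334 endothelial or in 816 immune cells, counts that allow at most 0.225% and 0.368%, and 1 was found in a fibroblast of calf 1. Since the share over all epithelial cells was 0.188%, below both limits, a lower level in endothelial or immune cells was not detectable at this depth. The single UMI in 788 fibroblasts, at a median depth of 2040 UMIs against 7711 in epithelial cells, does not show a lower level there either.

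Within the epithelium, IL22RA1 was found in 9 of 672 spinous-like cells (1.34%), 11 of 1438 mitotic-like cells (0.765%), 15 of 5538 basal-like cells (0.271%), 1 of 3396 granule-like cells and 3 of 9686 unnamed cells. The layers did not rank alike in the calves. Calves 1, 2 and 3 gave 14, 1 and 0 of the positive basal-like cells, 1, 8 and 0 of the spinous-like and 6, 0 and 5 of the mitotic-like. The spinous-like and mitotic-like cells were also the deepest, with medians of 12566 and 13771.5 UMIs against 8238.5 in basal-like cells, and the part of depth in these shares was not tested.

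Other receptors of the same families were read beside these. IL17RE, the partner of IL17RA in the receptor for IL17C, had UMIs in 87 epithelial cells (0.420%), 1 immune cell and no fibroblast or endothelial cell. IL17RD, a regulator of IL17 signalling, was found in 84 epithelial cells, 8 fibroblasts and 13 endothelial cells, with pooled levels of 0.00458, 0.0432 and 0.0206 UMIs per 10000. IL17RB, the receptor of IL25, had 10 UMIs in 5 lymphocytes. IL10RA, the other chain of the IL10 receptor, was found in 50 immune cells. IL22RA2, a secreted protein that binds IL22 and blocks it, was found in 34 epithelial cells, and 17 of these were granule-like. IL20RA and IL20RB, the receptor chains for IL19, IL20 and IL24 and relatives of IL22RA1, were found in 39.6% and 48.7% of epithelial cells.

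Over the 22 sums of a class or layer of a calf, the genes most like IL17RA by Pearson's r of log2(CPM + 1) among 7518 genes were BMP2K (0.86), MTSS1 (0.82) and SLC4A7 (0.82). Those most like IL17RC were GRAMD4 (0.84), HR (0.83) and ANKRD9 (0.81), and those most like IL10RB were UCP2 (0.93), MFNG (0.92) and TPM3 (0.92). IL22RA1 was most like GALNT12 (0.70), DSG1 (0.67) and EVI5L (0.66), on few UMIs. IL23R, on 6 UMIs in all, was most like ENSBTAG00000001219 (0.95), JCHAIN (0.94) and FCER1A (0.78). The sums share libraries, and layers are part of the epithelial sums, so these values describe the sums and carry no p.

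A list of 85 further genes of the axis, with ligands, receptors, inducers, signalling genes, epithelial targets and the lymphocyte program, was read beside the 8 genes, and 84 were in the files. Unlike the 8 genes, these took part in the clustering, so their differences between classes and layers describe the clusters and are not independent of them. Against fibroblasts, 13 of the 47 genes tested were higher in epithelial cells and 7 lower (of all genes, 19.2% and 18.1% were), with a median difference of 0.42 against 0.10 over all genes tested. Against endothelial cells 11 were higher and 19 lower (all genes 21.4% and 25.1%, list median -0.34 against -0.04), and against immune cells 9 were higher and 27 lower (all genes 22.3% and 24.9%, list median -1.46 against -0.02). The immune comparison thus had the most genes lower in epithelial cells, 10 of the 12 lymphocyte program genes tested among them.

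Of the other receptors, IL20RA and IL20RB rose in epithelial cells against fibroblasts, by 4.47 ± 0.51 and 3.85 ± 0.52 (SE, log2, edgeR), and against immune cells, which held 11 and 20 UMIs of them, by 4.73 and 3.79. Of the 13 epithelial target genes tested, 8 were higher and 2 lower against fibroblasts, 6 and 5 against endothelial cells and 4 and 5 against immune cells. The S100 proteins S100A12 and S100A7, antimicrobial proteins of stratified epithelium, were higher than in endothelial cells by 4.88 and 4.55 and than in immune cells by 3.34 and 3.57. CCL20, the chemokine that draws CCR6-bearing lymphocytes, was at 0.0971 UMIs per 10000 in epithelial cells against 0.0109 in fibroblasts, which held 2 UMIs of it. SAA3, an acute-phase gene, was lower in epithelial cells than in fibroblasts by -8.59, and AHR and BCL2L1, which protects from cell death, by -2.30 and -1.72.

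The chemokines CXCL3 and GRO1, which draw neutrophils, were lower in epithelial than in endothelial cells by -4.48 and -2.99, and the inducer IL6 by -3.83. TRAF5, a signalling adaptor, was higher in epithelial cells there, at 0.146 UMIs per 10000 against 0.00638, or 4 UMIs, and KIT and BATF, with 12 and 26 epithelial UMIs in all, were lower. Against immune cells, IL1B and CXCL8 were lower by -11.95 and -10.18, with 20 and 73 epithelial UMIs. IL7R was at 0.00104 UMIs per 10000 in epithelial cells, on 19 UMIs that were all in calf 3, against 3.09 in immune cells, and KLRB1 had 0 and IL2RA 3 epithelial UMIs. SOCS3, a brake on cytokine signalling, was higher in epithelial cells, at 0.0498 UMIs per 10000 against 0.00743 in immune cells, which held 3 UMIs of it.

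The listed genes were also compared between layers. In spinous-like cells 15 of 40 listed genes tested were higher than in basal-like cells and 6 lower, with a median of 0.27 against -0.03 over all genes, of which 19.3% and 18% were called. Of the 15 target genes tested 6 were higher and none lower, and 37.3% of all genes were called in this comparison. PI3, an elastase inhibitor, was higher by 6.86, S100A9 by 4.45, S100A8 by 4.09 and S100A12 by 2.35, and S100A8 was among the markers that named the layer. SAA3 was higher by 3.58 on 26 spinous-like UMIs, 25 of them in calf 3. SOCS3 was at 0 UMIs in spinous-like cells, and ZBTB16, TRAF5, TGFB1 and STAT3, which carries the IL22 signal, were lower, STAT3 by -0.65 (edgeR, adjusted p = 0.0104). The call of STAT3 was lost in 5 of 13 alternatives, among them that without calf 2 (-0.46, adjusted p = 0.0954) and that with limits on genes only (-0.18, adjusted p = 0.506). Those of ZBTB16 and SAA3 were lost in 4 alternatives each, that of ZBTB16 being -0.62 without doublet removal, and that of TGFB1 in 2, among them that without calf 2 (-0.81).

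In granule-like cells 17 of 40 genes were higher than in basal-like cells and 5 lower, with a median of 0.51 against 0.01 over all genes, of which 11.9% and 12% were called. S100A7, which led a basal-like cluster, S100A12 and S100A8 were lower by -3.04, -2.66 and -2.52. The chemokines CXCL2, GRO1, CXCL3 and CXCL5 were higher by 5.10, 5.09, 4.91 and 3.98 and IL6, with 217 UMIs against 9, by 5.42. CXCL2, GRO1, CXCL3 and CXCL5 kept that direction in every alternative that gave a value, but without the merging of calves IL6, S100A7, S100A8 and TGFB1 reversed. In mitotic-like cells 7 of 40 genes were higher and 4 lower, where 9.87% and 7.72% of all genes were, with IL6, CXCL2, GRO1, TNFAIP3 and ID2 higher by 1.21 to 2.16. These 5 calls were not stable: each was lost in 4 to 6 of the alternatives that gave a value, all of them without the block and at resolution 0.4, where TNFAIP3 was at 0.0054, GRO1 at 0.13, ID2 at 0.17, CXCL2 at 0.45 and IL6 at 0.65. ZBTB16, TRAF5 and IL20RB were lower there by 0.51 to 0.62 in size, IL20RB lost its call in 7 alternatives, and ZBTB16 and TRAF5 reversed under other clusterings. The granule-like and mitotic-like comparisons called 258 and 261 genes without the calf as a block, against 2670 and 1965 with it.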

How the data were processed

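The authors prepared 1 droplet library per newborn calf (10x Chromium 3', version 3 kit) after EDTA, trypsin and enzyme digestion. They deposited raw UMI counts of every gene, made with Cell Ranger 3.1.0 on ARS-UCD1.2. The matrices held 31228 barcodes, 26215 of them with 500 to 4000 genes, and droplets outside these barcodes were not seen here. The limits below had not been applied to them. Barcodes with 500 to 4000 genes were kept where their UMIs did not exceed 50000 and the mitochondrial share (37 genes) did not exceed 40%, and 1919 doublets were removed by a score against simulated doublets. Counts were log-normalized, 2000 variable genes without the 8 members were reduced to principal components, and calves were merged by an implementation of Harmony. Leiden clusters (resolution 0.1 over all cells, 0.8 within immune and non-immune cells) were named from marker lists, so names may differ from the study's. The rule that a cluster needs a positive marker score, and the counting of cycling immune cells as lymphocytes, were set after the clusters were seen. The members and gene lists were chosen with earlier results of these data known.

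Summed counts per calf and class or layer were tested in 1 edgeR quasi-likelihood fit each (TMM, filter on low counts, calf as a block, adjusted p under 0.05). No test was run on shares of cells, and their Clopper-Pearson intervals and the limits from a count of 0 (3 counts) cover counting error only. Pairing comes from the design, as the classes of a calf share its library. Named genes were the 8 members, the gate genes, up to 5 listed genes per direction and comparison by size of the log2 difference, and the 3 genes most like each member. Genes named beyond this rule (the program, inducer and related receptor genes given as shares or counts) were chosen from the fixed list after values were seen. On simulated counts, 17% of 2-fold and 76% of 4-fold changes were recovered with 0 false calls for epithelial against fibroblast (8718 genes), and 39% and 94% with 7 false calls for spinous-like against basal-like (10938 genes). Results of 1 listed gene are not reported here, and the program counts leave it out. No sequence is shown, and no genome was used here. Tools were Python 3.11.15, scipy 1.17.1, scikit-learn 1.9.0, leidenalg 0.10.2, R 4.3.3, edgeR 4.0.16 and DESeq2 1.42.0.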

Additional observations from a re-analysis of the deposited data

Results flagged for a closer look

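The barcodes that the filters left out held IL17F as well. They gave 34 IL17F UMIs beside the 513 in kept cells, 24 of them in calf 3 and 10 in calf 2, with 17 in barcodes over 4000 genes and 9 in barcodes under 500 genes. They gave 3 IL17A UMIs and no IL22 UMI. No control library was at hand for these barcodes.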

How the results depend on the processing

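The shares of IL17A, IL17F and IL22 UMIs in lymphocytes were 100% each when at least 2 UMIs were asked of a cell, and 70.4%, 77.4% and 20.8% when the cycling immune cluster was not counted as lymphocytes, an alternative chosen after seeing the data. Without doublet removal that of IL17F was 93.9%, and with at least 2 UMIs the CD4 share of IL17-positive lymphocytes was 0. Leaving out each calf in turn gave shares of IL17-positive lymphocytes of 11.2% to 25% and of IL22-positive ones of 0 to 1.08%, CD3E in 83.9% to 100% and CD4 in 0 to 3.23% of IL17-positive cells, and UMI shares of 98.0% to 100% for IL17A and 0 to 100% for IL22. Without calf 3, which gave most lymphocytes, the first 4 of these were 25%, 0, 100% and 0, and the last was 0. As a mean over cells, IL17RA was at 0.558 in immune and IL17RC at 0.185 UMIs per 10000 in endothelial cells, and with marker gates IL10RB was at 0.142 in fibroblasts.

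Leaving out each calf in turn, the number of genes called ranged from 1975 to 4172 against fibroblasts, 2781 to 4983 against endothelial cells, 2303 to 5460 against immune cells, 2709 to 3056 in spinous-like, 621 to 1721 in granule-like and 803 to 1099 in mitotic-like cells. Without the replicate block, spinous-like, granule-like and mitotic-like cells gave 1762, 258 and 261 calls, against 4162, 2670 and 1965 with it, and of the receptor calls the missing block ended that of IL17RA against endothelial cells alone. Spinous-like calls were 2732 without doublet removal, 2170 without merging of calves and 460 with layers cut from a per-cell score. Granule-like calls were 4949 with limits on genes only, 739 without merging and 4398 at resolution 0.4. Mitotic-like calls were 917 without doublet removal, 646 with limits on genes only, 735 without merging and 866 at resolution 0.4. The cause was not tested.

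Signs turned for small differences. IL17RA against fibroblasts was -0.31 without scaling factors and -0.026 to 0.22 with a calf left out, and against immune cells 0.020 without the low-count filter. In spinous-like cells IL10RB was -0.038 without the filter, -0.18 without scaling factors, -0.078 without doublet removal, -0.16 with limits on genes only, -0.20 without merging, -0.23 at resolution 0.4 and -0.13 to 0.23 with a calf left out, IL17RA was -0.0074 without scaling factors, and IL17RC was -0.018 with the per-cell score. In granule-like cells IL10RB was -0.011 without scaling factors and -0.063 with limits on genes only, where IL17RC was 0.10. Without merging, granule-like S100A7, S100A8, TGFB1 and IL6 were 0.83, 0.37, 0.73 and -2.66, and mitotic-like TRAF5 was 0.088. Mitotic-like ZBTB16 was 0.62 without doublet removal, 0.64 with limits on genes only, 0.32 without merging and 0.16 at resolution 0.4. At resolution 1.2 no cluster was basal-like, without doublet removal none was granule-like, and the per-cell score gave spinous-like cells only, so these gave no other values. The tests rest on 3 calves, with 22 fibroblasts, 10 immune cells and 3 lymphocytes from calf 1. On simulated counts, 17% of 2-fold differences were recovered for epithelial against fibroblast and 39% for spinous-like against basal-like. The other comparisons were not simulated. In the fits themselves, IL17RC and IL10RB passed against endothelial cells at differences of about 2-fold. Between layers, the intervals of the receptor genes tested lay within a 2-fold difference.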
